A study of Mus musculus with 12 samples.

Results

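The genes described here encode beta-catenin (Ctnnb1), the complex that marks it for destruction (the scaffolds Apc and Axin1, the kinases Gsk3a, Gsk3b and Csnk1a1, and the ubiquitin ligase adaptor Btrc) and the DNA-binding partners Tcf7l1 and Tcf7l2. They are 9 of the 21638 genes in the deposited table and were chosen by symbol for their place in the pathway. All 9 passed the filter on low values, which kept genes whose counts averaged 10 or more per library. They were followed across 12 RNA-seq libraries of endothelial cells that had been sorted by flow cytometry from the brain cortex of adult mice, as CD31-positive cells free of CD41 (a platelet marker) and CD45 (a leukocyte marker).

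There were 4 groups of 3 libraries. WT mice carried no named allele. Hdac2 ECKO mice carried Hdac2lox/lox and were meant to lose the histone deacetylase gene Hdac2 in endothelium, and Ezh2 ECKO mice carried Ezh2lox/lox, to lose the Polycomb methyltransferase gene Ezh2. Beta-catenin GOF mice carried Ctnnb1lox/lox, described as a constitutive activation of beta-catenin. Each mutant also carried Cdh5CreERT2, a Cre recombinase made from the promoter of the endothelial cadherin gene Cdh5 and switched on by tamoxifen, so that recombination was not limited to brain vessels. Mutants received 5 doses of tamoxifen at 75 mg/kg and brains were taken 2 months later. The labels do not say whether WT mice received tamoxifen, carried Cre or were littermates, nor whether the libraries of a group came from separate mice, so p-values measure only the spread between these libraries.

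Without a Wnt signal, the scaffolds APC and axin hold beta-catenin next to casein kinase 1 alpha and the GSK3 kinases, which phosphorylate its amino-terminal end. The F-box protein encoded by Btrc reads that phosphorylated stretch and brings beta-catenin to a ubiquitin ligase, and the protein is degraded. When Wnt binds its receptors the complex is held back, and beta-catenin enters the nucleus and joins TCF and LEF factors on DNA. In brain endothelium this pathway is known for its part in forming and keeping the blood-brain barrier. Control of beta-catenin is largely at the protein level, which mRNA counts do not measure.

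The stretch of Ctnnb1 that the destruction complex reads is shown because every other gene of the complex acts on or through it. It lies in exon 3 of the 15 exons of the transcript Ctnnb1-201 (GRCm38, chr9:120950522-120950749, plus strand), and the part printed covers codons 29 to 48 of 781, at chr9:120950593-120950652. Capitals mark the codons of the phosphorylated residues, serines 33 and 37 and threonine 41 for the GSK3 kinases and serine 45 for casein kinase 1 alpha.
Ctnnb1 codons 29 to 48: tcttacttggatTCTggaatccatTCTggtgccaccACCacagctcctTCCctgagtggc
Exon 3 holds 228 bases, a multiple of 3, so its loss leaves the rest of the protein in frame. In the activating allele in common use Cre removes exon 3, but the labels do not say which part of Ctnnb1 lies between the lox sites here. The exon makes up 4.39% of the 5192 exonic bases of Ctnnb1, and counts per gene do not separate exons, so they hold no check of the allele.

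Promoter sequences from RefSeq (GRCm38.p6) matched 5 of the 9 genes. The 250 bases before the first listed start of Ctnnb1 (chr9:120933150-120933399, plus strand) and of Gsk3a (chr7:25237852-25238101, minus strand) are shown because in both knockout groups the mean of Ctnnb1 lay above WT and that of Gsk3a below it. Capitals mark CpG dinucleotides. The Ctnnb1 stretch lies inside the gene as counted here, which begins further upstream, at chr9:120929216.
Ctnnb1 promoter: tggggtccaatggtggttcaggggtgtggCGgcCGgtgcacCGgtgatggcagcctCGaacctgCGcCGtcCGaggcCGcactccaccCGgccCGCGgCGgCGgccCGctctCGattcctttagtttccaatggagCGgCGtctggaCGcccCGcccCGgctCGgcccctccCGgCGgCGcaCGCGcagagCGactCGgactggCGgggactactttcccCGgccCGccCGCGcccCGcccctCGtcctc
Gsk3a promoter: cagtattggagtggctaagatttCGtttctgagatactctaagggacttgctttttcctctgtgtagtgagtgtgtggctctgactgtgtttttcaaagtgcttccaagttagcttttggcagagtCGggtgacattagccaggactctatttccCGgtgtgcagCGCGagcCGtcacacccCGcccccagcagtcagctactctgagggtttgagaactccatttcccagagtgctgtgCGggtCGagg
The Ctnnb1 stretch holds 35 CpG, and 97.0% of the 32851 promoters in the same table hold fewer; the stretch before a second listed start holds 43. The Gsk3a stretch holds 9, against a median of 6 over the table. Among the remaining members, Tcf7l1 had 29 CpG, Gsk3b 15, and the 2 listed starts of Tcf7l2 had 30 and 7. The core letters bound by TCF and LEF factors, searched as CTTTGAA or CTTTGAT on both strands, occur in 7.48% of these promoters. They were found once, in the Gsk3a stretch, on the opposite strand from base 93 of the line as printed, and in none of the other stretches matched to members. A match of letters is a description of the sequence and shows no binding.

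Between 24781070 and 36109975 counts were deposited per library, with 13922 to 17091 genes detected. Levels are given as CPM, counts per 1000000 of the TMM-scaled library total, and 3 counts correspond to 0.0831 to 0.121 CPM, a limit that covers counting error only. The targeted genes did not separate the groups. Hdac2 was at 163, 122 and 104 CPM in WT and 82.2, 94.99 and 112 in Hdac2 ECKO, so that the ranges overlapped. In beta-catenin GOF, where it was not targeted, Hdac2 was at 88.6, 92.3 and 107.6 CPM, within the range of Hdac2 ECKO. Ezh2 was at 8.88, 2.69 and 8.69 CPM in WT and 9.85, 5.19 and 11.7 in the Ezh2-labelled libraries, which goes against the label and overlaps WT. Counts per gene include exons outside a deleted part, so they check a label only in part. These 3 are therefore called Ezh2-labelled libraries throughout. Where they and Hdac2 ECKO are named together as knockouts, the word follows the labels only. Loss of either gene is not shown by these counts. On the first principal component, which held 27.4% of the variance, the Ezh2-labelled library 2 (−38.6) lay inside the range of WT (−68.4 to −28.5), beta-catenin GOF lay at −31.8 to −12.7 and Hdac2 ECKO 2 at 10.6, while the other knockout libraries lay between 49.3 and 88.9.

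All 12 brain endothelial markers were detected in the sorted cells, with a summed level between 7160 and 10271 CPM in every library. Markers of other cells were lower: microglia reached at most 8.33 CPM, astrocytes 12.3, fibroblasts 4.72, platelets and leukocytes 50.7, oligodendrocytes 68.3, pericytes and smooth muscle 384 and neurons 422. Red blood cell genes were the exception. Their sum was 19617 to 33720 CPM in WT, 212 to 11724 in Hdac2 ECKO, 1456 to 3600 in the Ezh2-labelled libraries and 271 to 20835 in beta-catenin GOF. Of the pericyte and smooth muscle list, 4 of 10 tested genes rose in Hdac2 ECKO against WT, beside 9.2% of all genes called, with a summed level of 130.5 to 324 CPM against 67.7 to 124. The sum was 58.0 to 76.5 CPM in the Ezh2-labelled libraries and 122 to 384 in beta-catenin GOF. In these groups 0 genes of the list were called against WT. The part of these cells in the results below was not tested, and in sorted bulk samples fewer cells of a type and less RNA per cell cannot be told apart.

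Per kilobase of exon, the scale on which genes of different length can be compared, Ctnnb1 stood far above the other members. In WT it was at 126 ± 26.5 CPM per kb (SD, n = 3), followed by Csnk1a1 at 12.4 ± 1.13 and Gsk3b at 8.43 ± 1.93, and the ranges of these 3 genes did not overlap. Gsk3a at 2.84 ± 0.446, Tcf7l2 at 2.67 ± 0.963 and Apc at 2.18 ± 0.489 could not be ordered beyond their spread. Axin1 at 1.55 ± 0.181, Btrc at 1.02 ± 0.646 and Tcf7l1 at 0.831 ± 0.587 were lowest, below Apc, and each overlapped with the next. The leading order of Ctnnb1, Csnk1a1 and Gsk3b held in the means of all 4 groups, although Csnk1a1 and Gsk3b overlapped in the Ezh2-labelled libraries and in beta-catenin GOF. The middle of the order differed in Hdac2 ECKO, where Tcf7l2 at 5.45 ± 1.28 and Apc at 4.68 ± 1.53 CPM per kb stood above Gsk3a at 1.81 ± 0.126 without overlap. In the Ezh2-labelled libraries Tcf7l2 also stood above Gsk3a without overlap, while the ranges of Apc and Gsk3a overlapped.

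**Figure D1:**
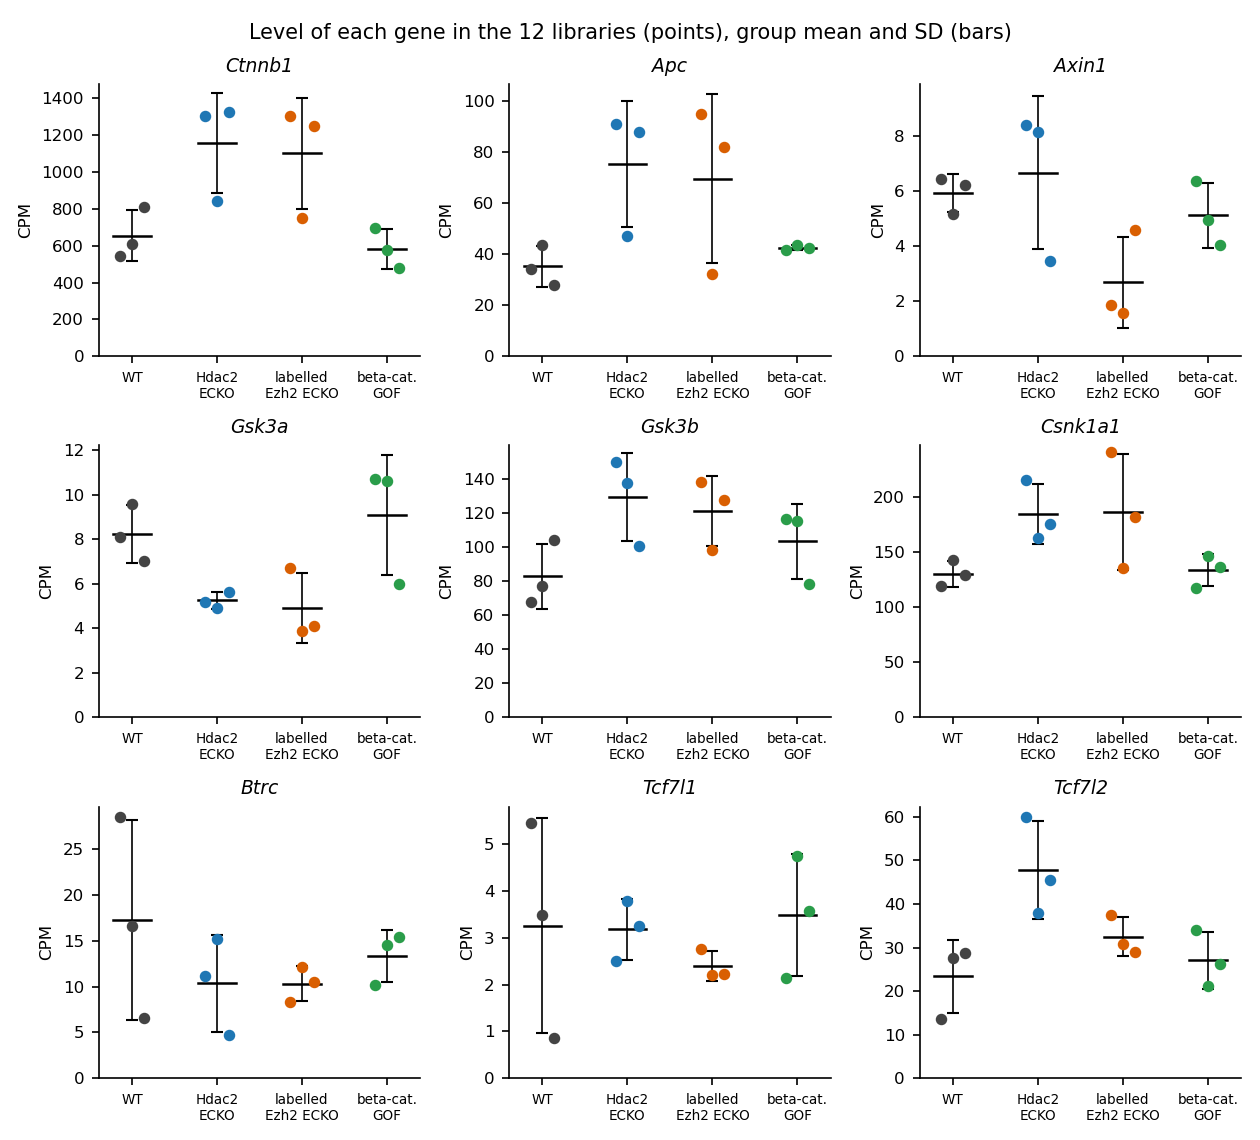
CPM of each gene in every library (points, 3 per group), with the group mean and SD as bars, each panel on its own axis from 0. Ctnnb1, Apc and Csnk1a1 are higher in 2 of the 3 Ezh2-labelled libraries than in any WT library, and Gsk3a is below every WT library in all 3.

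Ctnnb1 (ENSMUSG00000006932.17, chr9:120929216-120960507, plus strand) had the highest counts of all members. Its level was 546, 608 and 809 CPM in WT libraries, 1303, 845 and 1324 in Hdac2 ECKO, 1303, 754 and 1248 in the Ezh2-labelled libraries and 696, 576 and 478 in beta-catenin GOF. Every Hdac2 ECKO library was above every WT library, as were replicates 1 and 3 labelled Ezh2 ECKO, while replicate 2 lay inside the WT range. Beta-catenin GOF overlapped WT and was the lowest group by mean.

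The mean of Ctnnb1 was 1157 ± 271 CPM in Hdac2 ECKO against 654 ± 138 in WT (SD, n = 3 each), which is 0.82 on the log2 scale (SE 0.29) and did not pass the threshold of 0.05 (edgeR adjusted p = 0.071). In the Ezh2-labelled libraries the mean was 1102 ± 303 CPM and the log2 fold change against WT 0.75 (SE 0.29, edgeR adjusted p = 0.13). Neither difference was called. In beta-catenin GOF the mean was 583 ± 109 CPM, with a log2 fold change against WT of −0.17 and a 95% interval from −0.77 to 0.44. Against the knockouts beta-catenin GOF was lower without overlap, by −0.99 against Hdac2 ECKO (SE 0.29, edgeR adjusted p = 0.17) and −0.92 against the Ezh2-labelled libraries (adjusted p = 0.28) on the log2 scale, and neither passed. The call depended on single libraries: the difference between Hdac2 ECKO and WT passed without Hdac2 ECKO 2 (log2 fold change 0.96, edgeR adjusted p = 0.039) and without WT 3 (1.00, 0.046), and that of the Ezh2-labelled libraries passed without their replicate 2 (0.96, 0.027). Without Hdac2 ECKO 2 and Ezh2-labelled library 2, each in its own contrast, the differences of beta-catenin GOF passed as well (−1.13 in both, edgeR adjusted p = 0.048 and 0.038). DESeq2 also called the difference between Hdac2 ECKO and WT (0.77, DESeq2 adjusted p = 0.033). The same omissions raised the calls over all genes. In Hdac2 ECKO against WT they went from 1157 to 2220 without Hdac2 ECKO 2 and 1868 without WT 3. For the Ezh2-labelled libraries against WT they went from 129 to 2328. For beta-catenin GOF they went from 9 to 541 against Hdac2 ECKO and from 8 to 731 against the Ezh2-labelled libraries. Without WT 1, WT 2, Hdac2 ECKO 1 or Hdac2 ECKO 3, 0 members passed in Hdac2 ECKO against WT.

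A neighbouring gene bears on these values. Ulk4, which encodes a kinase-like protein, lies on the opposite strand and shares 759 of the 5192 exonic bases of Ctnnb1 (14.6%), between 120955351 and 120960507 on chromosome 9, a span that includes the 3′ end of Ctnnb1. In the table Ulk4 was at 326, 385 and 593 CPM in WT libraries, 1039.8, 613 and 1041 in Hdac2 ECKO, 1049.8, 557 and 966 in the Ezh2-labelled libraries and 509.6, 400.0 and 293 in beta-catenin GOF. These levels are between 59.6% and 80.6% of those of Ctnnb1 in the same library, and Ulk4 ranked second of 7580 genes for likeness to Ctnnb1 across the libraries.

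Whether reads in shared exons were counted for both genes was looked at in 29 gene pairs in which every exon of one gene lies inside exons of the other. The inner gene had counts in 13 of 14 pairs on opposite strands and in 15 of 15 on the same strand, above 100 in 11 and 13 of them, and never more than the outer gene. In some pairs its counts were few beside those of the outer gene: Cldn22 had 71 over 995 bases, inside Wwc2 with 33582, and Zbed6 had 936 over 5007 bases, inside Gm38394 with 44429. Reads in shared stretches were thus counted for the inner gene on either strand in most pairs, but how many of them went to both rows is not shown by these counts, and the Ulk4 row cannot be separated from Ctnnb1 with them.

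If reads in the shared bases were counted for both rows, taking the counts of Ulk4 from those of Ctnnb1 removes them, along with any that belong to Ulk4 alone, and leaves a lower limit for the reads of Ctnnb1 outside the shared bases. The difference was 220.4, 223 and 216 CPM in WT libraries, 263, 231 and 284 in Hdac2 ECKO, 253, 197 and 282 in the Ezh2-labelled libraries and 186, 176 and 185 in beta-catenin GOF. WT libraries now lay within a few CPM of each other, Hdac2 ECKO remained above WT without overlap, the Ezh2-labelled libraries spanned WT, and all beta-catenin GOF libraries lay below WT. The log2 fold change of the difference against WT was 0.24 in Hdac2 ECKO (SE 0.21, edgeR adjusted p = 0.45), in place of 0.82, and 0.15, in place of 0.75, in the Ezh2-labelled libraries (SE 0.21, adjusted p = 0.69). It was −0.27 in beta-catenin GOF (SE 0.21, edgeR adjusted p = 0.91). Over the 4433 exonic bases that are not shared, this difference amounts to 39.6 to 64.0 CPM per kb, still the highest level among the members in every group.

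**Figure D2:**
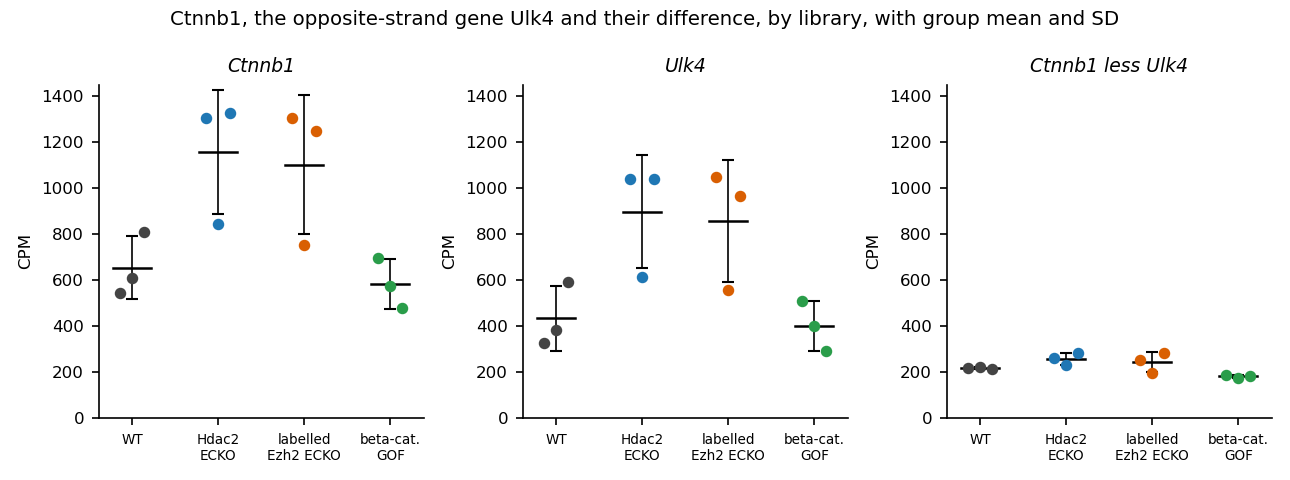
CPM of Ctnnb1, of Ulk4 and of their difference in each library (points), with group mean and SD, all on one axis from 0. The higher values of Hdac2 ECKO and of the Ezh2-labelled libraries are seen in Ctnnb1 and Ulk4, while the difference stays between 176 and 284 CPM in all 12 libraries.

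The scaffolds Apc and Axin1 had different patterns. Apc (chr18:34220924-34322552, plus strand), the large scaffold that binds beta-catenin, was at 34.1, 43.6 and 27.9 CPM in WT libraries, 91.1, 46.96 and 87.97 in Hdac2 ECKO, 94.8, 32.1 and 81.9 in the Ezh2-labelled libraries and 41.8, 43.5 and 42.3 in beta-catenin GOF. All Hdac2 ECKO libraries were above WT, replicate 2 only just, and of the Ezh2-labelled libraries replicate 2 lay inside the WT range and the other two above it. The log2 fold change against WT was 1.10 in Hdac2 ECKO (SE 0.36, edgeR adjusted p = 0.06) and 0.98 in the Ezh2-labelled libraries (SE 0.36, adjusted p = 0.12). Without replicate 2 these became 1.29 (edgeR adjusted p = 0.029) and 1.33 (adjusted p = 0.012), so that 1 library in each group decided the call. Calls over all genes rose in the same fits, from 1157 to 2220 and from 129 to 2328. DESeq2 called the difference between Hdac2 ECKO and WT with all libraries (1.04, DESeq2 adjusted p = 0.027). Without Ezh2-labelled library 2, Apc was also lower in beta-catenin GOF than in that group (−1.05, edgeR adjusted p = 0.046). In beta-catenin GOF the 42.5 ± 0.918 CPM had the smallest relative spread of any member in any group, and it did not differ from WT beyond the spread (log2 fold change 0.27, 95% interval −0.48 to 1.03).

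Axin1 (chr17:26138688-26195811, plus strand), the scaffold that brings the kinases and beta-catenin together, was at 6.45, 5.16 and 6.23 CPM in WT libraries, 8.41, 8.16 and 3.47 in Hdac2 ECKO, 1.88, 1.57 and 4.60 in the Ezh2-labelled libraries and 6.38, 4.96 and 4.04 in beta-catenin GOF. All 3 Ezh2-labelled libraries were below every WT library, and Hdac2 ECKO straddled WT. The log2 fold change was −1.15 in the Ezh2-labelled libraries (SE 0.48, edgeR adjusted p = 0.16), 0.17 in Hdac2 ECKO (adjusted p = 0.83) and −0.22 in beta-catenin GOF (adjusted p = 0.97). The lowest library had 40 counts of Axin1, so counting noise is part of its spread. Its relative Axin2, a transcriptional target of beta-catenin named here after its values were seen, was at 10.1, 16.5 and 19.9 CPM in WT libraries, 31.6, 21.1 and 42.7 in Hdac2 ECKO, 33.4, 23.7 and 30.4 in the Ezh2-labelled libraries and 17.8, 21.3 and 23.1 in beta-catenin GOF. Both knockout groups lay above WT without overlap, at log2 fold changes of 1.04 (edgeR adjusted p = 0.051) and 0.91 (adjusted p = 0.11) that did not pass.

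The means of the GSK3 kinases lay on opposite sides of WT in the knockout groups. Gsk3a (chr7:25228258-25237851, minus strand) was at 8.12, 9.59 and 7.01 CPM in WT libraries, 5.19, 4.93 and 5.65 in Hdac2 ECKO, 6.71, 3.90 and 4.10 in the Ezh2-labelled libraries and 10.7, 10.6 and 5.98 in beta-catenin GOF. Every knockout library was below every WT library, at log2 fold changes of −0.65 (SE 0.36) in Hdac2 ECKO and −0.75 (SE 0.36) in the Ezh2-labelled libraries, neither of which passed (edgeR adjusted p = 0.21 and 0.21). Beta-catenin GOF spanned WT. Of the exonic bases of Gsk3a, 28.3% are shared with an antisense gene, 9130221H12Rik, that has no row in the table, so reads from that gene could count for Gsk3a.

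Gsk3b (chr16:38089001-38246084, plus strand) was at 67.5, 77.01 and 104 CPM in WT libraries, 149.7, 138 and 100.5 in Hdac2 ECKO, 138, 97.99 and 127 in the Ezh2-labelled libraries and 116, 115 and 78.03 in beta-catenin GOF. Its knockout libraries were mostly above WT, with 1 library of each group inside the WT range. The log2 fold changes of 0.64 in Hdac2 ECKO (SE 0.26, edgeR adjusted p = 0.11), 0.55 in the Ezh2-labelled libraries (SE 0.26, adjusted p = 0.21) and 0.32 in beta-catenin GOF (SE 0.26, adjusted p = 0.92) did not pass. Csnk1a1 (chr18:61555274-61590061, plus strand), the casein kinase that phosphorylates serine 45, was at 119, 143 and 129 CPM in WT libraries, 215, 163 and 175 in Hdac2 ECKO, 241, 136 and 182 in the Ezh2-labelled libraries and 118, 147 and 137 in beta-catenin GOF. Hdac2 ECKO was above WT without overlap, and the Ezh2-labelled library 2 lay inside the WT range. Its log2 fold changes were 0.50 (SE 0.24, edgeR adjusted p = 0.17), 0.51 (SE 0.24, adjusted p = 0.21) and 0.04 (SE 0.24, adjusted p = 0.99) in the same order of groups. Without the Ezh2-labelled library 2 that group's difference passed (0.70, edgeR adjusted p = 0.045), in a fit that called 2328 genes against 129 in the main one.

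Btrc (chr19:45363734-45530013, plus strand), which encodes the F-box protein that recognises phosphorylated beta-catenin, spread widely among WT libraries. It was at 28.5, 16.7 and 6.62 CPM in WT libraries, 11.2, 15.1 and 4.72 in Hdac2 ECKO, 8.33, 12.2 and 10.5 in the Ezh2-labelled libraries and 10.2, 14.5 and 15.4 in beta-catenin GOF. The WT libraries had a coefficient of variation of 63.4%, and Hdac2 ECKO 3 alone lay outside their range. Log2 fold changes of −0.74 (SE 0.47), −0.74 (SE 0.47) and −0.37 (SE 0.47) were within the spread (edgeR adjusted p = 0.29, 0.34 and 0.95). Fbxw11, its relative with an overlapping role, named after its values were seen, was at 20.3, 30.5 and 29.9 CPM in WT libraries, 41.9, 24.1 and 46.7 in Hdac2 ECKO, 48.4, 28.4 and 40.1 in the Ezh2-labelled libraries and 22.4, 28.6 and 20.9 in beta-catenin GOF, and was not called against WT in any group (edgeR adjusted p = 0.28, 0.29 and 0.96).

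Of the TCF factors, Tcf7l2 came closest to a call. Tcf7l2 (chr19:55741820-55933654, plus strand), which activates or represses targets depending on beta-catenin, was at 13.7, 27.7 and 28.8 CPM in WT libraries, 60.1, 37.98 and 45.4 in Hdac2 ECKO, 37.5, 30.9 and 29.03 in the Ezh2-labelled libraries and 34.1, 21.1 and 26.1 in beta-catenin GOF. Both knockout groups were above WT without overlap, and beta-catenin GOF overlapped WT. The mean of 47.8 ± 11.2 CPM in Hdac2 ECKO against 23.4 ± 8.45 in WT differed by 1.03 on the log2 scale (SE 0.31, edgeR adjusted p = 0.051), the smallest adjusted p of any member in any contrast. For the Ezh2-labelled libraries it was 0.47 (SE 0.31, edgeR adjusted p = 0.36). The difference between Hdac2 ECKO and WT passed without Hdac2 ECKO 2 (1.12, edgeR adjusted p = 0.036) and without WT 3 (1.21, adjusted p = 0.040), and by DESeq2 on all libraries (0.98, DESeq2 adjusted p = 0.020). Over all genes these fits called 2220, 1868 and 2553, against 1157 in the main one.

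Tcf7l1 (chr6:72626378-72789254, minus strand), mainly a repressor of the pathway's targets, was near the lower end of the members at 5.45, 3.48 and 0.855 CPM in WT libraries, 2.50, 3.79 and 3.26 in Hdac2 ECKO, 2.76, 2.20 and 2.23 in the Ezh2-labelled libraries and 2.15, 4.75 and 3.57 in beta-catenin GOF. WT 3 was the lowest library and WT 1 the highest, so every group lay within the WT range. The log2 fold changes against WT were −0.04 (95% interval −1.29 to 1.22), −0.44 (−1.70 to 0.82) and 0.10 (−1.15 to 1.35) for Hdac2 ECKO, the Ezh2-labelled libraries and beta-catenin GOF. Each interval reaches past 1 on the log2 scale in at least 1 direction.

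**Figure D3:**
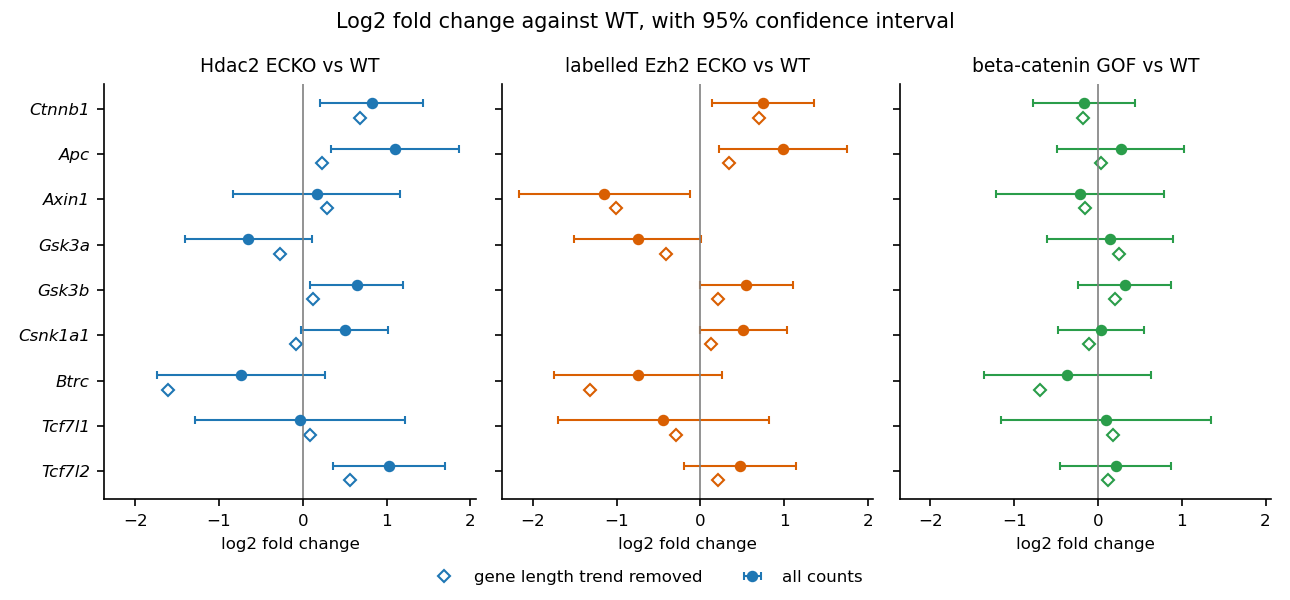
Log2 fold change against WT of each gene in the 3 mutant groups (filled circles, with 95% confidence intervals) and after the trend with gene length was removed (open diamonds). In Hdac2 ECKO the Apc estimate moves from 1.10 to 0.24 with the trend removed and that of Ctnnb1 from 0.82 to 0.68.

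Counted together, 0 of the 9 genes were called in any of the 6 comparisons (edgeR adjusted p under 0.05, adjusted over the 12577 genes tested). In simulated counts edgeR recovered 7% of planted 2-fold changes, so a member that was not called is not shown to be unchanged. In Hdac2 ECKO against WT, where 9.2% of all tested genes were called, the smallest adjusted p among members was 0.051. In the Ezh2-labelled libraries against WT 1.03% of all genes were called, and in beta-catenin GOF against WT 0% (0 of 12577, with 763 at an unadjusted p under 0.05, 38 called by DESeq2 and 26 by limma voom). Between mutants the shares were 0.0239% for the Ezh2-labelled libraries against Hdac2 ECKO, 0.0716% for beta-catenin GOF against Hdac2 ECKO and 0.0636% for beta-catenin GOF against the Ezh2-labelled libraries. At an unadjusted p under 0.05 there were 4, 3, 0, 1, 4 and 2 members in these comparisons, in the order given, beside 33.1%, 24.7%, 6.07%, 8.19%, 21.1% and 13.2% of all genes tested. DESeq2 called 3, 0, 0, 0, 1 and 0 members, beside 24.6%, 10.4%, 0.303%, 0.783%, 9.6% and 1.15% of the genes to which it gave an adjusted p. Limma voom with sample quality weights called 5, 4, 0, 0, 3 and 2 members, beside 42.7%, 29.8%, 0.207%, 0.0875%, 26.5% and 11.7% of all genes.

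By range alone, 5 members did not overlap between Hdac2 ECKO and WT, against 37.8% of all tested genes: Ctnnb1, Apc, Csnk1a1 and Tcf7l2 were higher and Gsk3a lower. In the Ezh2-labelled libraries 3 did not overlap with WT, against 22% of all genes: Tcf7l2 was higher, Axin1 and Gsk3a lower. None of the members separated beta-catenin GOF from WT, against 12.7% of all genes. Between mutants, Tcf7l2 was lower in the Ezh2-labelled libraries than in Hdac2 ECKO (background 13.2%). Ctnnb1, Apc, Csnk1a1 and Tcf7l2 were lower and Gsk3a higher in beta-catenin GOF than in Hdac2 ECKO (background 32%), and Ctnnb1 was lower in beta-catenin GOF than in the Ezh2-labelled libraries (background 16.6%). The comparisons share their WT or mutant libraries, so they are not separate evidence. The median log2 fold change of the members against WT was 0.50 in Hdac2 ECKO, 0.47 in the Ezh2-labelled libraries and 0.10 in beta-catenin GOF, beside 0.10, 0.05 and 0.01 over all genes tested.

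The members differ widely in length, from 2900 exonic bases for Gsk3a to 16908 for Btrc, and in these libraries the fold changes of all genes moved with length. Across the 12577 genes the rank correlation of the log2 fold change with exonic length was 0.44 in Hdac2 ECKO, 0.29 in the Ezh2-labelled libraries and 0.14 in beta-catenin GOF, each against WT. Apc is longer than 97.8% of tested genes, Csnk1a1 than 91.3%, Gsk3b than 89.5%, Tcf7l2 than 85.7% and Ctnnb1 than 59.2%, while Gsk3a is longer than 27.4%. The means of Apc, Csnk1a1, Gsk3b, Tcf7l2 and Ctnnb1 lay above WT in both knockout groups and that of short Gsk3a below. Btrc, the longest, also lay below. Axin1, longer than 41.6% of tested genes, had log2 fold changes of 0.17 in Hdac2 ECKO and −1.15 in the Ezh2-labelled libraries. Tcf7l1, longer than 43.0%, had −0.04 and −0.44. Ctnnb1 lay above the upper quartile of genes of like length in both groups. Whether length is the cause was not tested.

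With a smooth trend on gene length removed in each library, the median log2 fold change of the members was 0.13 in Hdac2 ECKO and 0.13 in the Ezh2-labelled libraries, and 0 of 9 were called. Apc went to 0.24 and 0.34, Gsk3b to 0.13 and 0.21, Csnk1a1 to −0.08 and 0.13, and Gsk3a to −0.27 and −0.41 in these 2 groups. Tcf7l2, at 1.03 and 0.47 before, went to 0.57 (edgeR adjusted p = 0.22) and 0.22 (adjusted p = 0.68). The values of Ctnnb1 moved little, to 0.68 and 0.70, and that of Axin1 in the Ezh2-labelled libraries, −1.15 before, also stayed below −1. Btrc moved the other way, to −1.61 in Hdac2 ECKO (edgeR adjusted p = 0.099) and −1.31 in the Ezh2-labelled libraries (adjusted p = 0.18).

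**Figure D4:**
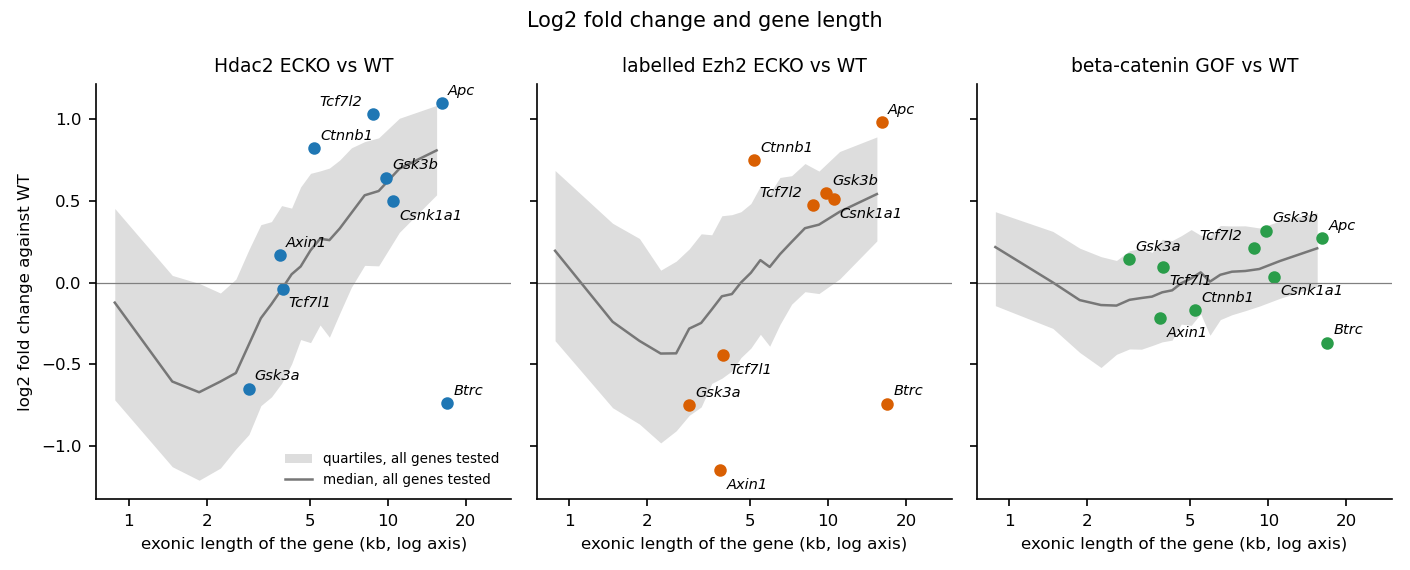
Log2 fold change against WT of the members (points) over exonic length in kb (log axis), with the median (line) and quartiles (band) of all 12577 genes tested in 20 length bins. Among the shortest genes the line first falls, to −0.67 near 1869 bases in Hdac2 ECKO and −0.43 near 2258 bases in the Ezh2-labelled libraries. Beyond that it climbs with length. In these groups Gsk3b, Csnk1a1 and Gsk3a lie inside the band, Ctnnb1 and Apc above it (Apc only just) and Btrc below it.

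Ratios within a library remove its total and show the balance between members. The ratio of Gsk3b to Gsk3a, per length, was 2.45, 2.37 and 4.38 in WT libraries, 8.51, 8.25 and 5.24 in Hdac2 ECKO, 6.07, 7.42 and 9.18 in the Ezh2-labelled libraries and 3.21, 3.21 and 3.85 in beta-catenin GOF. Every knockout library was above every WT and beta-catenin GOF library, by 2.44-fold in Hdac2 ECKO and 2.53-fold in the Ezh2-labelled libraries against WT. With 3 libraries against 3 the two-sided exact permutation p was 0.1, the smallest this design allows. Gsk3b is the longer gene: from the fold changes with the length trend removed, the ratio was 1.32-fold and 1.54-fold above WT in these groups.

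The ratio of Ctnnb1 to Axin1 was 62.4, 86.8 and 95.7 in WT, 511, 353 and 200.1 in the Ezh2-labelled libraries and 80.4, 85.5 and 87.3 in beta-catenin GOF, and in Hdac2 ECKO it was 114, 76.3 and 282. Apc to Axin1 was 1.26, 2.01 and 1.06 in WT libraries, 2.57, 1.37 and 6.03 in Hdac2 ECKO, 11.98, 4.85 and 4.23 in the Ezh2-labelled libraries and 1.55, 2.08 and 2.49 in beta-catenin GOF. In the Ezh2-labelled libraries both ratios were above WT in every library, by 4.11-fold and 4.51-fold (two-sided exact permutation p = 0.1 for each, the smallest possible). These sizes depend on the shared exons and on length. With the counts of Ulk4 taken from Ctnnb1, the ratio to Axin1 was 29.5, 37.3 and 29.9 in WT and 116, 108 and 52.97 in the Ezh2-labelled libraries, still without overlap but 2.72-fold (exact permutation p = 0.1). From the fold changes with the length trend removed, Ctnnb1 to Axin1 was 3.25-fold and Apc to Axin1 2.54-fold above WT. Hdac2 ECKO overlapped WT in both ratios. The ratio of Ctnnb1 to Gsk3b was 11.3, 9.44 and 11.6 in beta-catenin GOF, below the 15.3, 14.9 and 14.7 of WT (exact permutation p = 0.1). With the counts of Ulk4 taken from Ctnnb1 the groups overlapped, at 3.55, 3.37 and 5.26 against 7.24, 6.42 and 4.60 (exact permutation p = 0.2). These ratios were chosen after the values of their genes were seen. In all, 21 such comparisons with WT were made over 7 ratios, with 5 at the smallest p, beside 6 with the counts of Ulk4 taken off (1 at the smallest p), and none can pass an adjustment over them.

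**Figure D5:**
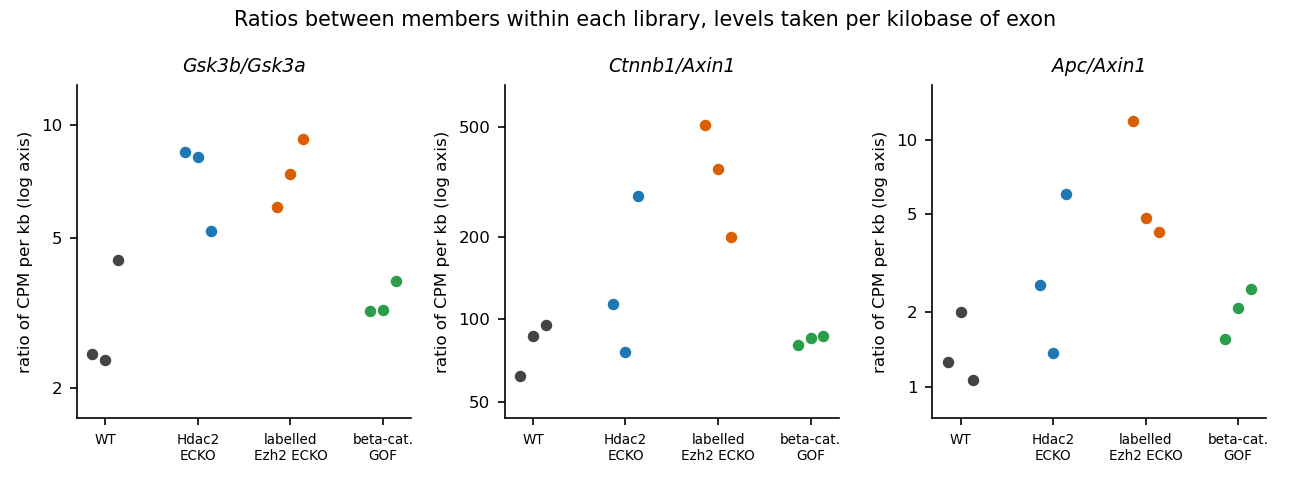
Ratios of CPM per kb between members in each library (points, log axes). Gsk3b/Gsk3a is 2.37 to 4.38 in WT and 5.24 to 9.18 in the Hdac2 ECKO and Ezh2-labelled libraries. Ctnnb1/Axin1 and Apc/Axin1 are highest in the Ezh2-labelled libraries.

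Around the members, 5 lists of pathway genes were read for counts. In Hdac2 ECKO against WT 9.2% of all genes tested were called in either direction, and their median log2 fold change over all was 0.10. Of the other subunits and regulators of the destruction complex, 27 of 29 genes were tested, and in Hdac2 ECKO against WT 1 rose and 2 fell (median log2 fold change 0.22). Csnk1g1, a casein kinase 1 gamma, rose from 11.5 ± 2.06 to 24.04 ± 7.34 CPM (log2 fold change 1.07, edgeR adjusted p = 0.041). Ppp2cb and Ppp2r1a, a catalytic and a scaffold subunit of protein phosphatase 2A, fell, at −1.05 (edgeR adjusted p = 0.039) and −1.35 (adjusted p = 0.039), although the groups overlapped for Ppp2r1a. Of the nuclear partners of beta-catenin, 0 rose and 1 of 27 fell (median 0.40): Tle5, a short relative of the Groucho corepressors, at −2.88 (edgeR adjusted p = 0.034, 270.2 ± 67.7 against 36.7 ± 24.6 CPM).

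Among 9 junctional partners 1 rose in Hdac2 ECKO (median 0.72), the cadherin gene Cdh2, at 1.54 (edgeR adjusted p = 0.043). Of the receptors and ligands upstream, 1 of 12 tested rose (median 0.58), the Wnt7 coreceptor gene Reck, at 1.10 (edgeR adjusted p = 0.043). Of 18 tested transcriptional targets of beta-catenin 3 rose and 0 fell (median 0.61), beside 9.2% of all genes called (median 0.10). They were Znrf3 (1.26, edgeR adjusted p = 0.036) and Apcdd1 (0.93, adjusted p = 0.045), both feedback inhibitors of Wnt signalling, and the receptor gene Tnfrsf19 (0.88, adjusted p = 0.045). All of these calls were lost when WT 1, WT 2, Hdac2 ECKO 1 or Hdac2 ECKO 3 was left out (edgeR adjusted p = 0.098 to 0.205). The call of Csnk1g1 was also lost without WT 3 and when only the groups compared were fitted, those of Ppp2cb and Ppp2r1a with library size alone, and those of Tnfrsf19 and Apcdd1 with median-ratio scaling (edgeR adjusted p = 0.050 to 0.064).

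With the length trend removed all of these calls but that of Tle5 were lost (edgeR adjusted p = 0.053 to 0.60). For Csnk1g1 and Apcdd1 the log2 fold change dropped to 0.25 and 0.26, while Reck at 1.02 and Tnfrsf19 at 0.82 moved little. Another 2 targets, named after their values were seen, passed in that fit: Fgfbp1, which encodes a binding protein for fibroblast growth factors, at 1.64 (edgeR adjusted p = 0.043), and the amino acid transporter gene Slc7a5 at 0.78 (adjusted p = 0.049). The median of the targets was 0.60 after removal of the trend, that of the junctional partners 0.30 and that of the nuclear partners 0.09.

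Against WT, 0 genes of these lists were called by edgeR in the Ezh2-labelled libraries or in beta-catenin GOF. With the length trend removed 1 was called in the former, the phosphatase 2A regulatory subunit gene Ppp2r5a (log2 fold change −1.11, edgeR adjusted p = 0.049), named after its value was seen, and 0 in the latter. In the Ezh2-labelled libraries 9, 2, 1, 2 and 6 of the 27, 27, 9, 12 and 18 genes had an unadjusted p under 0.05 in the order of the lists above, beside 24.7% of all genes, and in beta-catenin GOF 0, 0, 0, 0 and 5, beside 6.07%. Lef1, a TCF-family partner that is also a target, was the most abundant nuclear partner. It was at 307 ± 94.5 CPM in WT, 639 ± 130.3 in Hdac2 ECKO (log2 fold change 1.06, edgeR adjusted p = 0.06, called in 7 of 15 alternatives), 469 ± 179 in the Ezh2-labelled libraries and 320.0 ± 111 in beta-catenin GOF. Sox17, the other nuclear partner named by abundance, was at 177 ± 9.07 CPM in WT and 129 ± 15.5 in beta-catenin GOF, lower without overlap but not called (log2 fold change −0.45, edgeR adjusted p = 0.89). The ubiquitin ligase subunits Rbx1 and Skp1a, which act with Btrc, had log2 fold changes of 0.24 and −0.27 in beta-catenin GOF and 0.51 and 0.19 in the Ezh2-labelled libraries.

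For the targets, the median log2 fold change against WT was 0.38 in beta-catenin GOF and 0.35 in the Ezh2-labelled libraries, beside 0.01 and 0.05 over all genes. The tight junction gene Cldn5 and the efflux pump gene Abcb1a, the targets with the highest levels, had values of 0.13 (SE 0.43) and 0.18 (SE 0.23) in beta-catenin GOF (edgeR adjusted p = 0.98 and 0.95), and of −1.12 and 0.15 in the Ezh2-labelled libraries (adjusted p = 0.14 and 0.72). The lower value of Cldn5 in the Ezh2-labelled libraries passed in 5 of 15 alternatives (edgeR with no filter −1.12, adjusted p = 0.015, and without replicate 2 −1.75, adjusted p = 0.016, limma voom −1.74, adjusted p = 0.0018), and over all 15 the adjusted p ran from 0.0018 to 0.36. With the replicate block it was −1.26 (edgeR adjusted p = 0.037). The receptors Fzd6 and Tspan12 had −0.0020 and −0.14 in beta-catenin GOF, and the junctional genes Ptprb and Pecam1 0.27 and −0.33, none of them called (edgeR adjusted p = 1.00, 0.96, 0.94 and 0.92). In Hdac2 ECKO the same 4 genes had 0.60, 0.16, 0.78 and −0.12.

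Likeness to Ctnnb1 was measured as the root-mean-square difference of centred log2 CPM over the 12 libraries, among 7580 tested genes with a mean of at least 10 CPM. The closest genes were Hnrnph1 (0.12), Ulk4 (0.14), Rsbn1l (0.14), Wdr44 (0.14) and BC005537 (0.15), against a spread of 0.52 for Ctnnb1 about its own mean. None of them belongs to the destruction complex, and Ulk4 shares exons with Ctnnb1 as described. Among members, Csnk1a1 (0.32, rank 775), Apc (0.36, rank 1144), Gsk3b (0.36, rank 1221) and Tcf7l2 (0.37, rank 1335) followed at a distance and Btrc (1.07, rank 6614) stood far from it. Axin1, Gsk3a and Tcf7l1 were below 10 CPM and were not ranked.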

How the data were processed

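RNA-seq was made with SMART-Seq v4 PLUS from sorted cortical endothelial cells and read in pairs. The submitters' processing notes name FastQC, cutadapt, STAR, featureCounts, DESeq2 and the build mm10, without roles or versions. The deposited table holds counts per gene, as whole numbers that differ in total between libraries, although its name calls them normalized; in a library 79.5% to 84.0% of values from 10 to 50 are even, so that both mates of a pair appear to be counted. For 99.1% of its genes the chromosome, start and end matched a gene of GENCODE M21. Exon overlaps were taken from that annotation, and the gene lengths used are those deposited with the counts.

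Groups came from the titles. The 12577 genes whose counts averaged 10 or more were tested with edgeR 4.0.16 (quasi-likelihood, TMM, 1 model over all 12 libraries, R 4.3.3), with Benjamini-Hochberg adjustment and a threshold of 0.05, and 95% intervals come from the same fit. DESeq2 1.42.0 and limma 3.58.1 were alternatives, as were other scaling, no filter, 2 groups alone, a replicate block and removal of a trend on gene length. The fitting code was tested on simulated counts, with 200 of 12577 genes changed in 1 group. Planted 2-fold changes were recovered at 7% by edgeR, 18% by DESeq2 and 7% by limma voom. For 4-fold changes these shares were 65%, 76% and 58%. Unchanged genes made up 12.2%, 28.8% and 9.72% of the calls, in the same order. Ratios were tested with an exact permutation test (scipy 1.17.1). Within groups, no library pair was alike within sampling noise (smallest chi-square per degree of freedom 62.6). Pairs across groups were not compared in this way.

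The members and lists were chosen with earlier results of these data known. The named pathway genes are, per list and contrast with WT, up to 4 called genes in order of p and, where fewer than 2 were called, the 2 with the highest mean CPM; the genes most like Ctnnb1 are the 5 with the smallest difference. Genes named outside this rule are marked in the text.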

Additional observations from a re-analysis of the deposited data

How the results depend on the processing

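All results are for the 9 genes and the pathway genes named, under 8 alternatives chosen with the design, the libraries left out in turn, and 2 alternatives added after seeing the data (Ctnnb1 less Ulk4, and both knockout replicates numbered 2 left out together). Counts are given in the order Hdac2 ECKO, Ezh2-labelled and beta-catenin GOF against WT, then Ezh2-labelled set against Hdac2 ECKO, and last beta-catenin GOF set against Hdac2 ECKO and against Ezh2-labelled. The genes called, 1157, 129, 0, 3, 9 and 8 by the main test, were 2279, 1367, 157, 199, 978 and 359 with no filter, 1049, 76, 0, 3, 7 and 10 with median-ratio scaling, and 1826, 30, 0, 2, 4 and 14 with library size alone. They were 2553, 1280, 38, 98, 621 and 144 by DESeq2, 5374, 3743, 26, 11, 3339 and 1466 by limma voom with sample quality weights, and 1446, 17, 0, 2, 9 and 11 when only the groups compared were fitted. With the gene length trend removed they were 651, 157, 0, 3, 5 and 14, and with both replicates numbered 2 left out 3645, 2802, 2, 0, 2320 and 1566. Leaving out each library gave 0 to 2220, 2 to 2328, 0 to 4, 1 to 3, 0 to 541 and 1 to 731. Against WT, Hdac2 ECKO gave 0 without WT 1, WT 2 or Hdac2 ECKO 3, 1 without Hdac2 ECKO 1, 1868 without WT 3 and 2220 without Hdac2 ECKO 2. The Ezh2-labelled libraries gave 2 without WT 1 or WT 2, 4 and 7 without their replicates 1 and 3, 1138 without WT 3 and 2328 without their replicate 2. The cause of these shifts was not tested.

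With the replicate block the counts were 1832, 536, 0, 3, 13 and 13, and 0 members were called. Of the pathway genes named, the block changed the call of Cldn5 in the Ezh2-labelled libraries against WT alone (−1.26, edgeR adjusted p = 0.037). The libraries share only a number: 6 of 12 correlated best with a library of their own number.

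Members called were 2, 1, 0, 0, 1 and 0 with no filter, 4, 0, 0, 0, 0 and 0 with library size alone, 3, 0, 0, 0, 1 and 0 by DESeq2, 5, 4, 0, 0, 3 and 2 by voom, 1, 0, 0, 0, 0 and 0 with only the groups compared, and 3, 3, 0, 0, 2 and 2 with both replicates numbered 2 left out. Leaving out each library gave 0 to 3, 0 to 3, 0 to 0, 0 to 0, 0 to 1 and 0 to 2. Median-ratio scaling and length removal gave 0 throughout. These counts are to be read beside those over all genes given above for the same settings. In Hdac2 ECKO against WT the calls over all genes, 1157 by the main test, rose as well. They were 2279 with no filter, 1826 with library size alone and 3645 with both replicates numbered 2 left out. Among uncalled pathway genes, Lef1 (7 of 15 alternatives), Ptprb (4), Sox17 (2) and Fzd6 (2) were called in Hdac2 ECKO against WT, and Cldn5 (5) and Ptprb (2) in the Ezh2-labelled libraries. Library size alone moved the median of all genes from 0.10 to 0.34 in Hdac2 ECKO against WT.

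Directions that turned were all of uncalled values. Voom gave log2 fold changes of Axin1 −0.29 (Hdac2 ECKO/WT), Fzd6 0.0802 (GOF/WT), Gsk3b 0.19, Btrc 0.56 (Ezh2-labelled/Hdac2 ECKO), Axin1 0.14 (GOF/Hdac2 ECKO). Both replicates numbered 2 left out gave log2 fold changes of Axin1 −0.0040 (Hdac2 ECKO/WT), Gsk3b 0.086, Btrc 0.24 (Ezh2-labelled/Hdac2 ECKO). Gene length trend removed gave log2 fold changes of Csnk1a1 −0.078, Tcf7l1 0.085 (Hdac2 ECKO/WT), Csnk1a1 −0.11, Lef1 −0.033, Fzd6 0.0043 (GOF/WT), Ctnnb1 0.011, Apc 0.11, Gsk3b 0.086, Btrc 0.29 (Ezh2-labelled/Hdac2 ECKO), Gsk3b 0.071 (GOF/Hdac2 ECKO). Library size alone gave log2 fold changes of Tcf7l1 0.19, Pecam1 0.12 (Hdac2 ECKO/WT), Fzd6 0.051 (GOF/WT), Csnk1a1 −0.18 (Ezh2-labelled/Hdac2 ECKO), Tcf7l1 −0.045 (GOF/Hdac2 ECKO). Replicate block gave log2 fold changes of Tcf7l1 0.072 (Hdac2 ECKO/WT), Lef1 −0.0060, Fzd6 0.0054 (GOF/WT), Btrc 0.12 (Ezh2-labelled/Hdac2 ECKO). No filter gave log2 fold changes of Btrc 0.0096 (Ezh2-labelled/Hdac2 ECKO). Median-ratio scaling gave log2 fold changes of Btrc 0.027 (Ezh2-labelled/Hdac2 ECKO). DESeq2 gave log2 fold changes of Btrc 0.027 (Ezh2-labelled/Hdac2 ECKO). Leaving out each library gave ranges of Axin1 −0.053 to 0.46, Tcf7l1 −0.49 to 0.55, Tspan12 −0.017 to 0.34 (Hdac2 ECKO/WT), Tcf7l1 −0.90 to 0.14, Tspan12 −0.052 to 0.30, Abcb1a −0.0017 to 0.31 (Ezh2-labelled/WT), Ctnnb1 −0.31 to 0.015, Csnk1a1 −0.035 to 0.12, Btrc −0.75 to 0.20, Tcf7l1 −0.35 to 0.68, Tcf7l2 −0.0597 to 0.39, Lef1 −0.21 to 0.29, Fzd6 −0.12 to 0.20, Tspan12 −0.26 to 0.036, Cldn5 −0.15 to 0.37 (GOF/WT), Ctnnb1 −0.22 to 0.14, Apc −0.39 to 0.23, Gsk3a −0.39 to 0.041, Gsk3b −0.24 to 0.038, Csnk1a1 −0.21 to 0.20, Btrc −0.36 to 0.41 (Ezh2-labelled/Hdac2 ECKO), Tcf7l1 −0.15 to 0.39 (GOF/Hdac2 ECKO).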

Other observations

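In beta-catenin GOF, where no gene was called by edgeR, 6 of the 18 tested transcriptional targets of beta-catenin were above WT in every library and 1 was below, beside 12.7% of all tested genes that separated in either direction. The list was chosen with earlier results of these data known, so this count is a description and not a test. Not every target separated: Axin2 overlapped WT in this group. The targets named next were picked, after their values were seen, from those that were higher. Apcdd1, a Wnt inhibitor, was at 76.00, 84.1 and 116 CPM in WT and 145, 149.9 and 157 in beta-catenin GOF (log2 fold change 0.71, edgeR adjusted p = 0.75). Znrf3, a ligase that removes Wnt receptors, was at 11.2, 8.14 and 15.4 and 17.7, 19.00 and 18.3 CPM (log2 fold change 0.66, edgeR adjusted p = 0.82). Apcdd1 and Znrf3 were also above WT in all 3 Hdac2 ECKO libraries, at 181, 156 and 188 and 31.2, 25.7 and 25.97 CPM. In that comparison 37.8% of all tested genes did not overlap, in either direction. The log2 fold change of Apcdd1 there dropped to 0.26 with the length trend removed. The comparisons share their WT libraries.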
